A study of Mus musculus with 8 samples.

Results

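The proteasome and immunoproteasome subunit genes were taken as every gene symbol of the form Psm, a letter from a to g and a number, with pseudogenes left out. The rule found 50 of the 24421 symbols in the count table. It covers the 20S core (Psma and Psmb), the 19S cap (Psmc and Psmd), the activators (Psme), the inhibitor Psmf1 and the core assembly chaperones (Psmg). It also took in Psmc3ip, a recombination factor that binds Psmc3 and is not a subunit, and Psme2b, a near-identical copy of Psme2 whose reads may be split with it. RNA came from CD4+ T cells sorted out of enzymatically digested knee joints of male mice, 16 weeks old, with antigen induced arthritis. The 4 Slc7a5 knockout (KO) libraries were compared with 4 wild-type (WT) libraries, and all animals of both groups had arthritis. The labels do not give the knockout allele, the cells in which it was made, or whether libraries and animals correspond, so p-values measure the spread between libraries, which may be technical in part. Slc7a5 encodes LAT1, a transporter that brings large neutral amino acids into the cell, and the comparison asks how its absence bears on the T cells of an inflamed joint.

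The proteasome degrades proteins tagged with ubiquitin. Its barrel, the 20S core, is made of outer alpha rings that gate the entrance and inner beta rings that hold the cutting sites, while the 19S cap recognises, unfolds and feeds in the substrate. Beta subunits Psmb5, Psmb6 and Psmb7 carry the cutting sites in most cells. In lymphocytes and under interferon gamma, Psmb8, Psmb9 and Psmb10 take the places of Psmb5, Psmb6 and Psmb7 when new cores are assembled, and the resulting immunoproteasome favours peptides that fit MHC class I.

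Slc7a5 itself had 0 counts in each of the 4 KO libraries, against 385, 194, 410 and 0 counts in WT libraries 1 to 4. The library labelled WT 4 therefore held as few Slc7a5 reads as the KO libraries, and a two-sided exact permutation test gave p = 0.143 (n = 4 each). Library totals ran between 18837650 and 25853856 counts in KO and between 21873678 and 36436923 in WT. KO library 4 stood apart, with 5221 genes detected, against 7684 to 9358 in the other KO libraries and 7957 to 10139 in WT. The T cell identity markers (14 of 15 in the table, all with counts in all 8 libraries) summed to between 8059 and 10690 CPM (counts scaled to a common library size) in KO and between 10340 and 14170 CPM in WT. Cd4, the marker of the sorted cells, had 427, 344, 402 and 1.8 CPM in KO libraries 1 to 4. In WT it had between 372.5 and 570.3 CPM. For the whole list KO library 4 was the highest KO library, at 10690 CPM. Of 18 MHC class II and myeloid markers, 2 (Adgre1 and Mrc1) were at 0 throughout, and the whole list summed to between 2001 and 11120 CPM in KO and between 1278 and 3194 CPM in WT. Most of it came from Cd74 (mean 4837 CPM in KO and 1172 in WT) and H2-Ab1 (2071 and 290). Myeloid genes were scarce and went both ways. Means in KO and WT were 6.47 and 23.7 CPM for Lyz2, 40.7 and 31.6 for Cd68, and 16.6 and 0 for Csf1r. Itgax and Itgam were at 0 in all KO libraries. B and plasma cell markers summed to at most 39.6 CPM in KO and 8.13 CPM in WT, CD8 and natural killer markers to at most 153 CPM in KO and 291 CPM in WT, and neutrophil markers to at most 127 CPM in KO and 122 CPM in WT. In KO library 4 the CD8 and natural killer sum was Cd8b1 alone, at 123 CPM, with Cd8a at 0. Cd8b1 had at most 20.3 CPM in any other library. Fibroblast markers reached at most 129 CPM in KO and 157 CPM in WT, most of it from Thy1, which T cells also express.

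None of the 48 members tested passed an adjusted p under 0.05 in edgeR's quasi-likelihood test, which called 0 of the 8489 genes tested (0.0%). DESeq2 called 387 genes (3.63% of those it tested) and limma voom 4 (0.0471%), with or without quality weights, and none of these was a member. At an unadjusted p under 0.05 stood 3 members, beside 3.84% of all tested genes, of which 2 had higher estimates in KO (Psmc6 and Psmd11) and 1 a lower one (Psmb10). The shares of all tested genes at that level were 1.87% higher and 1.97% lower. Over the 48 members, 21 estimates were higher in KO and 27 lower, with a median log2 fold change of -0.04, against -0.12 over all tested genes, of which 45.0% had a higher and 55.0% a lower estimate. The 50 members together made up 10220 ± 464 CPM in KO and 10130 ± 513 CPM in WT (SD, n = 4 each), so the total proteasome message per library differed by less than its spread. In sorted cells measured in bulk, fewer cells that use a gene and less of its RNA per cell cannot be told apart.

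The plot of fold changes by role shows estimates on both sides of 0, between -1.13 and 1.22, and how wide their errors became where a library held few or no reads of the gene.

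**Figure D1:**
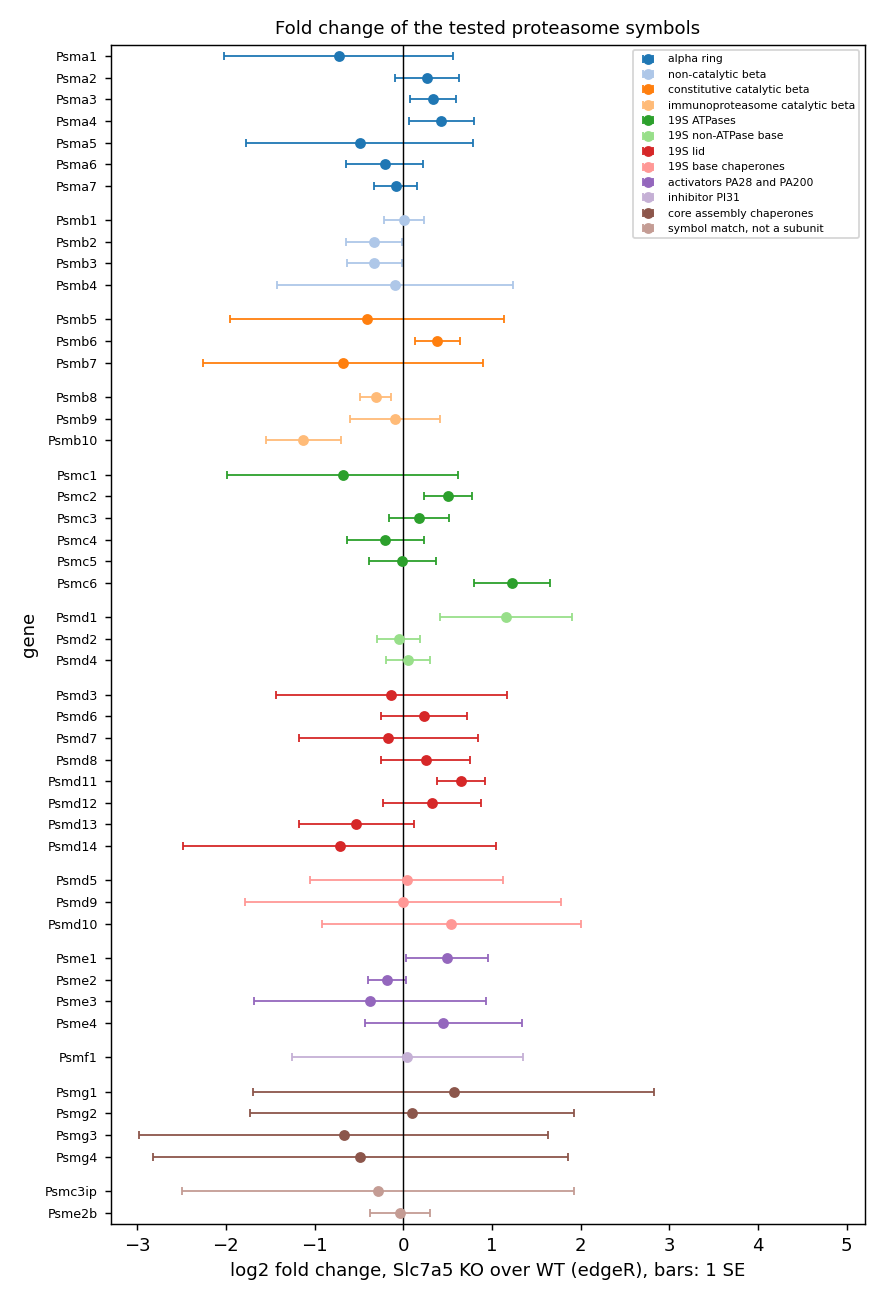
Log2 fold change, Slc7a5 KO over WT, of the 48 proteasome symbols tested, from edgeR, one point per gene with bars of 1 SE; colours mark the role. Psmb10 (-1.13) has the lowest estimate and Psmc6 (1.22) the highest, and the 4 widest bars belong to genes with 0 counts in at least 1 library.

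Among the role groups of the members, only the immunoproteasome subunits had summed CPM without overlap between KO and WT. Summed over Psmb8, Psmb9 and Psmb10, KO libraries 1 to 4 had 984, 1054, 1109 and 1173 CPM, against 1483, 1406, 1433 and 1360 CPM in WT libraries 1 to 4. Every KO library lay below every WT library, and the KO mean was 76.0% of the WT mean (1080 ± 80.3 CPM in KO and 1420 ± 51.3 CPM in WT). All 3 subunits had a lower estimate in KO, 2 of them without overlap between the groups, and none passed the test. Over all tested genes 55.0% had a lower estimate and 4.62% lay wholly below WT. The median log2 fold change of the 3 was -0.31, and 0.00 with an offset for GC content. Their upstream sequences are shown because this trio is the set on which the comparison turns, with Psmb5, the constitutive counterpart of Psmb8, beside them. Each is the 250 bases before the gene's start in RefSeq, build GRCm38.p6, read 5′ to 3′ on the gene's strand. The windows are chr17:34197945-34198194 on the plus strand for Psmb8, chr17:34187331-34187580 on the minus strand for Psmb9, chr8:105938393-105938642 on the minus strand for Psmb10 and chr14:54617996-54618245 on the minus strand for Psmb5. Capitals mark a match to TTCNNNGAA, the form of a gamma-activated site, in Psmb8 and to TGACNNNGC, the form of an antioxidant response element, which the proteasome regulator Nfe2l1 can bind, in Psmb5.
Psmb8: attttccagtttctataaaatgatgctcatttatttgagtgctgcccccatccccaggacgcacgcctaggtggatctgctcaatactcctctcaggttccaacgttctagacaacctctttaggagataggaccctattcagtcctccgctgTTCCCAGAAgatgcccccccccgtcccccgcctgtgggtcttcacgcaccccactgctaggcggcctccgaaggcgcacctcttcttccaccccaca
Psmb9: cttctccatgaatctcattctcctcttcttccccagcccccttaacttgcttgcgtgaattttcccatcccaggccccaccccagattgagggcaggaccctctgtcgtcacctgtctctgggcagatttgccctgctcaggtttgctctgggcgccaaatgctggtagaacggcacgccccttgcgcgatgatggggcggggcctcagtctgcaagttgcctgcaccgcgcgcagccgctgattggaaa
Psmb10: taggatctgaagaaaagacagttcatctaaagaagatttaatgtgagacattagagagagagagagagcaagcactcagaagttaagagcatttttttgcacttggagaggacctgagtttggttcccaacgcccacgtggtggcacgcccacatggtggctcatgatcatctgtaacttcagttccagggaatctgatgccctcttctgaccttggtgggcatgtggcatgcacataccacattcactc
Psmb5: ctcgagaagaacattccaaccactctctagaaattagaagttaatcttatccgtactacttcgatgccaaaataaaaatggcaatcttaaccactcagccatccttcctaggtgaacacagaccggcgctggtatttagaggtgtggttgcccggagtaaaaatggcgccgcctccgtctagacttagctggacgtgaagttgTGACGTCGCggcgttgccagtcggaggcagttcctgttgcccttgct

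Both strands were searched. TTCNNNGAA reads the same on both strands in outline, stood 97 bases before the start of Psmb8, and was in 7.02% of 32851 promoter windows and in 2 of the 42 member genes with a window (Psmb8 and Psmg1). TGACNNNGC stood 47 bases before the start of Psmb5 and was in 10.2% of all windows and in 5 of 42 member genes (Psmb5, Psmb6, Psmc6, Psmd9 and Psmd12). The core of an interferon response element, GAAA and GAAA with 2 bases between, was in 2.98% of all windows and in 3 of 42 member genes (Psmb3, Psmd4 and Psmd9). None of these patterns was found in the windows printed for Psmb9 and Psmb10, which says only that these letters are not there. The window of Psmb9 runs into its divergent neighbour Tap1, which begins at chr17:34187556, so the first bases printed lie inside Tap1. Tap1 is a transporter that carries proteasome products into the endoplasmic reticulum.

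Psmb8, the immunoproteasome subunit with chymotrypsin-like activity, had 857, 867, 839 and 796 CPM in KO libraries 1 to 4, against 1167, 1051, 1024 and 925 CPM in WT libraries 1 to 4. The groups did not overlap, and the KO libraries lay within a narrower range than the WT libraries. Its log2 fold change was -0.31 (SE 0.18), which did not pass edgeR's quasi-likelihood test (adjusted p = 0.9999). Psmb10, which replaces Psmb7, had 46.9, 122, 151 and 117 CPM in KO, against 176, 240, 240 and 297 CPM in WT. Here too all KO libraries lay below all WT libraries, at a mean of 109 ± 44.1 CPM in KO and 238 ± 49.8 CPM in WT. Its log2 fold change was -1.13 (SE 0.42), with an unadjusted p of 0.0208 and an adjusted p of 0.916 in edgeR's quasi-likelihood test. It was -0.999 without the library labelled WT 4, and in that fit, as with an offset for GC content, no member had a lower estimate at an unadjusted p under 0.05. Psmb8 and Psmb10 were the 2 members that lay wholly below WT (with no scaling factor Psma1 and Psmd13 did too), which is 4.17% of the 48 tested, beside 4.62% of all tested genes, so such a separation was about as common among the members as elsewhere. Psmb9, which replaces Psmb6, had 80.5, 65.6, 119 and 260 CPM in KO, against 140, 114, 169 and 138 CPM in WT. KO library 4 was the highest of all 8 and the other KO libraries were low or within the WT range. The log2 fold change of Psmb9 was -0.09 (SE 0.51), and -0.68 without KO library 4.

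The constitutive counterparts did not move as a set. Psmb6, with caspase-like activity, had 552, 555, 484 and 940 CPM in KO, against 505, 564, 451 and 420 CPM in WT. The groups overlapped, with KO library 4 far above all others (log2 fold change 0.38, SE 0.26, and 0.11 without that library). Psmb5, with chymotrypsin-like activity, had 78.4, 19.1, 82.2 and 0 CPM in KO, against 70.01, 85.5, 44.0 and 39.95 CPM in WT. Psmb7, with trypsin-like activity, had 32.6, 36.5, 69.8 and 0 CPM in KO, against 80.5, 35.3, 65.7 and 41.3 CPM in WT. Both genes were undetected in KO library 4, where a count of 0 allows up to 0.157 CPM (3 counts, counting error only), and both groups overlapped. Summed over Psmb5 to Psmb7, KO had 663, 610, 637 and 940 CPM and WT had 656, 685, 561 and 501 CPM, which overlapped.

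**Figure D2:**
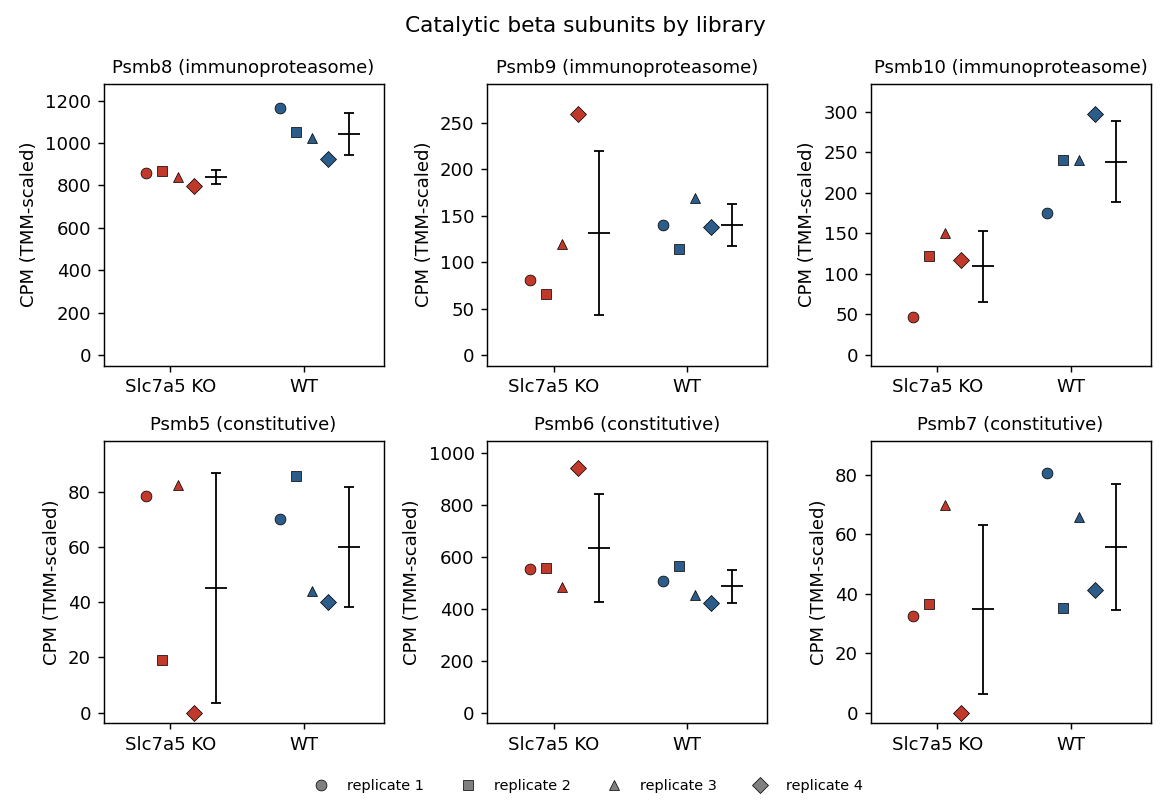
CPM, scaled by TMM, of the catalytic beta subunits in each library (upper row immunoproteasome, lower row constitutive), with KO left of WT, one symbol per replicate, and the mean with 1 SD beside the points (n = 4 each). KO and WT do not overlap for Psmb8 (839 ± 31.4 in KO and 1042 ± 99.7 in WT) and Psmb10, and KO library 4 has 0 for Psmb5 and Psmb7.

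Within each library, the log2 ratio of the summed immunoproteasome to the summed constitutive subunits was 0.57, 0.79, 0.80 and 0.32 in KO, against 1.18, 1.04, 1.35 and 1.44 in WT. The groups did not overlap, at 0.62 ± 0.23 in KO and 1.25 ± 0.18 in WT, a difference of -0.63. Per kilobase of transcript, which puts genes of unlike length on one scale, the ratio was -0.30 ± 0.24 in KO and 0.37 ± 0.19 in WT, so the immunoproteasome trio was the smaller one in every KO library and the larger one in every WT library. For the ratio of summed CPM, not per kilobase, the difference was -0.53 without KO library 4 and -0.57 without the library labelled WT 4. Because Psmb8 and Psmb6 carry most of these sums, the ratio speaks mainly of that pair. With the mean of log2 CPM in place of the sum, which gives the scarce subunits equal weight, the difference became 0.53, and the 0 counts of Psmb5 and Psmb7 in KO library 4 enter that value.

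Each replacement pair was also compared on its own, as the log2 ratio of CPM with 0.5 CPM added to each, with two-sided exact permutation tests adjusted over the 3 pairs. Psmb9 to Psmb6 was -2.77, -3.07, -2.02 and -1.85 in KO, against -1.85, -2.30, -1.41 and -1.61 in WT. The KO values were lower on average with some overlap (difference -0.64, exact p = 0.143, adjusted p = 0.429, n = 4 each). Psmb8 to Psmb5 differed by 1.55 (exact p = 0.543, adjusted p = 0.814) and Psmb10 to Psmb7 by 0.67 (exact p = 0.971, adjusted p = 0.971), both towards a higher ratio in KO. In each of these pairs KO library 4, with 0 reads of the constitutive partner, set the sign. Without it the differences were -0.09 for Psmb8 to Psmb5 and -1.03 for Psmb10 to Psmb7.

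GC content moved with these results. Psmb8, Psmb9 and Psmb10 have GC-rich transcripts, at percentiles 85.3, 83.1 and 88.5 of the abundant genes (log2 CPM above 5). Across the members, log2 fold change and GC content had a Spearman correlation of -0.36 (48 genes sharing the same 8 libraries), close to -0.32 over 4527 abundant genes. With an offset per library for GC content, the log2 fold change of Psmb8 became 0.00, that of Psmb9 0.17 and that of Psmb10 -0.79. Psmb6 has the same GC content as Psmb8, 55.8% for both transcripts, and its log2 fold change became 0.68 under the offset. The offset moves transcripts of equal GC content alike by construction, so this pair cannot show what part GC content plays, which was not tested. The summed MHC class II and myeloid markers, mostly Cd74 and H2-Ab1, averaged 8046 ± 4133 CPM in KO and 1800 ± 930 CPM in WT, and the summed T cell markers 9616 ± 1111 CPM in KO and 11750 ± 1752 CPM in WT. Both sums overlapped between the groups. Of the 14 T cell markers 12 had lower and 2 higher estimates, with a median of -0.42, beside -0.12 over all tested genes. Of these markers 5 lay wholly below WT, where the share over all tested genes was 4.62%. Of the 11 MHC class II and myeloid markers tested, 9 had higher and 2 lower estimates, with a median of 1.57. At an unadjusted p under 0.05 in edgeR's quasi-likelihood test 4 of them were higher (Cd74, H2-Aa, H2-Ab1 and H2-Eb1), beside 1.87% of all tested genes. None of the 11 passed an adjusted p under 0.05. The part of either marker list in the immunoproteasome result was not tested.

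**Figure D3:**
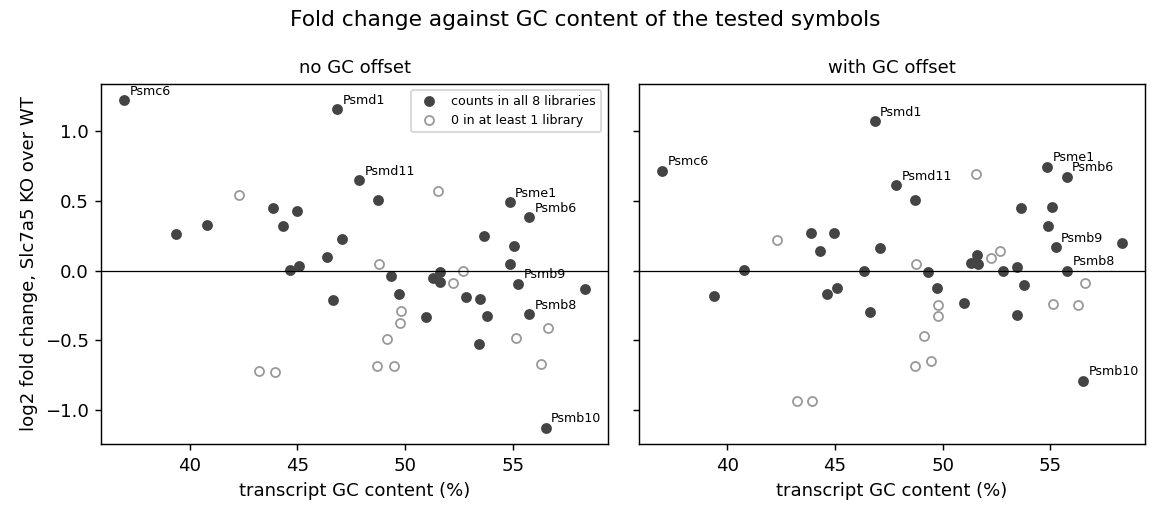
Log2 fold change, Slc7a5 KO over WT, of the tested proteasome symbols against the GC content of their transcripts, without (left) and with (right) an offset per library for GC content; open circles had 0 counts in at least 1 library. Psmb8 lies at -0.31 on the left and at 0.00 on the right, Psmb10 stays the lowest of the filled circles at -0.79, and Psmc6 comes down to 0.72.

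The core was set against the cap. The 17 core genes summed to 4345, 4808, 4729 and 4765 CPM in KO, against 5281, 5230, 4916 and 4541 CPM in WT. The 17 cap genes summed to 3823, 4061, 3696 and 4085 CPM in KO, against 3273, 3961, 3287 and 3471 CPM in WT. Both sums overlapped between the groups. Within a library, the log2 ratio of core to cap was 0.18, 0.24, 0.36 and 0.22 in KO, against 0.69, 0.40, 0.58 and 0.39 in WT. These ratios did not overlap, with 0.25 ± 0.07 in KO and 0.51 ± 0.15 in WT, but per kilobase they did overlap (0.86 ± 0.07 in KO and 1.07 ± 0.14 in WT). Without the immunoproteasome trio the core summed to 3582 ± 163 CPM in KO and 3572 ± 303 CPM in WT. Per kilobase it summed to 3171 ± 45.8 in KO and 3232 ± 273 in WT. Within it, the non-catalytic beta genes averaged 1088 ± 183 CPM in KO and 1229 ± 151 CPM in WT, and the constitutive catalytic trio 712 ± 153 CPM in KO and 601 ± 84.9 CPM in WT. The cap averaged 3916 ± 189 CPM in KO and 3498 ± 322 CPM in WT. Of the 14 constitutive core genes 5 had higher and 9 lower estimates, with a median of -0.15. Of the 17 cap genes 9 were higher and 8 lower, with a median of 0.05.

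**Figure D4:**
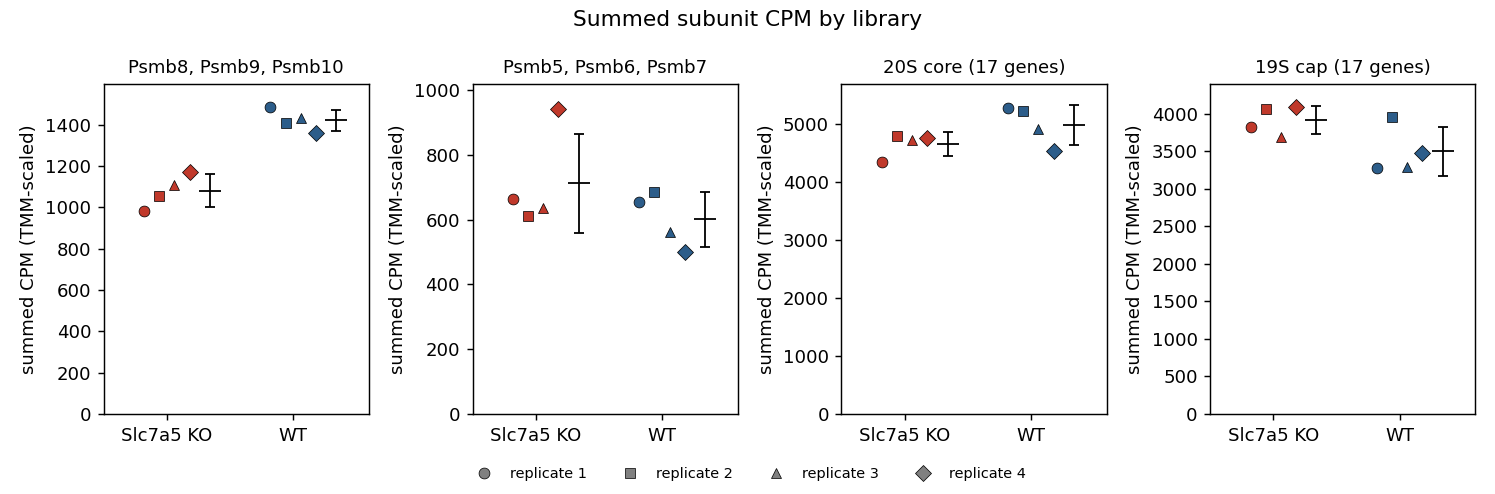
Summed CPM, scaled by TMM, of the immunoproteasome trio, the constitutive trio, the 20S core and the 19S cap in each library, KO left of WT, with the mean and 1 SD beside the points (n = 4 each). Only the immunoproteasome trio separates, between 984 and 1173 CPM in KO and between 1360 and 1483 CPM in WT.

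In the alpha ring, the non-catalytic part of the core that controls entry, 3 of 7 genes had higher and 4 lower estimates. Psma3 had 304, 340, 281 and 315 CPM in KO, against 215, 279, 239 and 254 CPM in WT. All KO libraries lay above all WT libraries, the nearest by a small margin, and the log2 fold change of 0.33 (SE 0.26) did not pass edgeR's quasi-likelihood test (adjusted p = 0.9999). With the GC offset the estimate was 0.00. Psma7 was the most abundant alpha gene, at 495 ± 102 CPM per kilobase in KO and 525 ± 88.2 in WT. Psma4 had 213, 213, 213 and 523 CPM in KO and between 181 and 257 CPM in WT, so its 3 other KO libraries were almost equal and KO library 4 stood alone. Psma1 and Psma5 were at 0 in KO library 4. Among the non-catalytic beta genes, Psmb1 had 461 ± 63.7 CPM in KO and 459 ± 50.2 CPM in WT. Psmb2 had 204 ± 36.7 CPM in KO and 257 ± 53.5 CPM in WT, with overlap (log2 fold change -0.33, SE 0.31).

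The core genes were far from equal in level. Within the constitutive catalytic trio, Psmb6 had 793 ± 260 CPM per kilobase in KO and 608 ± 79.4 in WT, against 29.9 ± 24.6 in KO and 48.0 ± 18.2 in WT for Psmb7. That is a 26.5-fold range in KO and a 12.7-fold range in WT. Without KO library 4, where Psmb7 had no reads, the KO range was 16.6-fold. Psmb8 had 516 ± 19.3 CPM per kilobase in KO and 640 ± 61.2 in WT, so in WT it stood level with Psmb6 within the spread. Psmb5, whose place Psmb8 takes, had 66.6 ± 24.1 CPM per kilobase in WT, far below Psmb8. The 19S ATPases were more even, with a 2.11-fold range in KO and a 3.75-fold range in WT. The cap as a whole was not. Its 17 genes had a 15.1-fold range in KO and a 13.7-fold range in WT, beside 26.5-fold and 13.3-fold for the 17 core genes. Without KO library 4 the KO range was 18.6-fold for the cap and 16.6-fold for the core.

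The cap's ATPase ring unfolds substrates, and 3 of its 6 genes had higher and 3 lower estimates. Psmc6 had 179, 310, 139 and 413 CPM in KO, against 83.4, 125, 145 and 92.3 CPM in WT. KO library 3 lay inside the WT range and the other KO libraries above it. Its log2 fold change of 1.22 (SE 0.43, unadjusted p = 0.0142) had an adjusted p of 0.751 in edgeR's quasi-likelihood test. The transcript of Psmc6 is among the poorest in GC (percentile 0.663), and with the GC offset the estimate was 0.72. Psmc2, the most abundant ATPase gene, had 388 ± 75.2 CPM in KO and 273 ± 53.3 CPM in WT (log2 fold change 0.51, SE 0.27).

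The rest of the base holds the ubiquitin receptor Psmd4 and the scaffold subunits Psmd1 and Psmd2. Psmd1 had 94.3, 290, 234 and 16.6 CPM in KO, against 84.9, 74.3, 44.2 and 80.8 CPM in WT. KO library 4 was the lowest of all 8 and the other KO libraries were the highest (log2 fold change 1.16, SE 0.74). Psmd4 had 431 ± 103 CPM in KO and 416 ± 41.5 CPM in WT. In the lid, which removes ubiquitin, 4 genes had higher and 4 lower estimates. Psmd11, a lid scaffold linked to assembly of the capped proteasome, had 415, 459, 422 and 696 CPM in KO, against 242, 385, 365 and 280 CPM in WT. All KO libraries lay above all WT libraries. The log2 fold change was 0.65 (SE 0.27), with an unadjusted p of 0.0352 and an adjusted p of 0.9999 in edgeR's quasi-likelihood test. It was 0.43 without KO library 4 and 0.61 with the GC offset. Psma3 and Psmd11 were the members that lay wholly above WT, 4.17% of those tested beside 1.52% of all tested genes. Without any scaling factor none did. Psmd14, the lid's deubiquitinating enzyme, had 282, 0.1, 148 and 0 CPM in KO, against 169, 238, 189 and 112 CPM in WT, so it was near or at 0 in 2 KO libraries and within or above the WT range in the others.

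Among the activators, Psme1 and Psme2 form PA28, which opens the core for peptides in immune cells. Psme1 had 183, 137, 167 and 574 CPM in KO, against 220, 141, 178 and 215 CPM in WT. Its log2 fold change of 0.49 (SE 0.46) came from KO library 4, without which it was -0.23. Psme2 had 463, 674, 493 and 656 CPM in KO, against 628, 687, 608 and 675 CPM in WT, with overlap (log2 fold change -0.19, SE 0.21). Psme2b followed with 187 ± 52.3 CPM in KO and 191 ± 12.4 CPM in WT, which may include reads of Psme2. Psme3, the nuclear activator, had 124 ± 88.8 CPM in KO and 160 ± 34.6 CPM in WT, with 0 in KO library 4. Psme4, or PA200, had 22.7, 78.4, 120 and 122 CPM in KO, against 28.9, 53.6, 30.1 and 138 CPM in WT. The inhibitor Psmf1 had 194, 160, 122 and 0 CPM in KO, against 74.7, 131, 106 and 149 CPM in WT. Neither of these separated the groups.

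The core assembly chaperones were scarce. Psmg1 to Psmg4, which pair up to build the alpha ring, summed to 17.8, 95.9, 121 and 0.1 CPM in KO, against 35.4, 69.2, 54.8 and 76.6 CPM in WT. KO libraries 1 and 4 lay below the WT range and KO libraries 2 and 3 above it. Psmg1 and Psmg3 were both at 0 in KO libraries 1 and 4. The chaperones of the cap base, Psmd5, Psmd9 and Psmd10, summed to 215 ± 77.0 CPM in KO and 190 ± 89.4 CPM in WT. Of these, Psmd10 (gankyrin) was at 0 in the library labelled WT 4 and Psmd5 at 0.4 CPM in KO library 4. The tissue-specific core genes were nearly silent. Psma8, the alpha subunit of germ cells, had counts in WT library 2 alone (325 counts, 11.7 CPM), and Psmb11, the catalytic subunit of thymic cortical epithelium, had 1 count in WT library 3 and none elsewhere. Both were at 0 in all KO libraries and were not tested.

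Absent reads followed one library. KO library 4 had 13 of the 48 tested members at 0, among them 7 of the 34 core and cap genes, and 16 under 1 CPM. KO libraries 1, 2 and 3 had 2, 2 and 0 members at 0, and WT libraries 1 to 4 had 1, 0, 0 and 1. In all 8 libraries 33 of 48 members (68.8%) had reads, against 44.6% of all tested genes. Between 90.7 and 281 CPM, 70.8% of 24 members and 87.9% of 1548 tested genes were detected in all 8 libraries. In KO library 4 alone the shares were 70.8% and 88.8%, and every one of these members was detected in each of the other 7 libraries. This difference in shares was not tested. The median coefficient of variation of the members was 53.9% in KO and 24.8% in WT, and 28.4% over KO libraries 1 to 3. KO library 4 also had the lowest total counts and the fewest genes detected, and their part in these zeros was not tested.

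**Figure D5:**
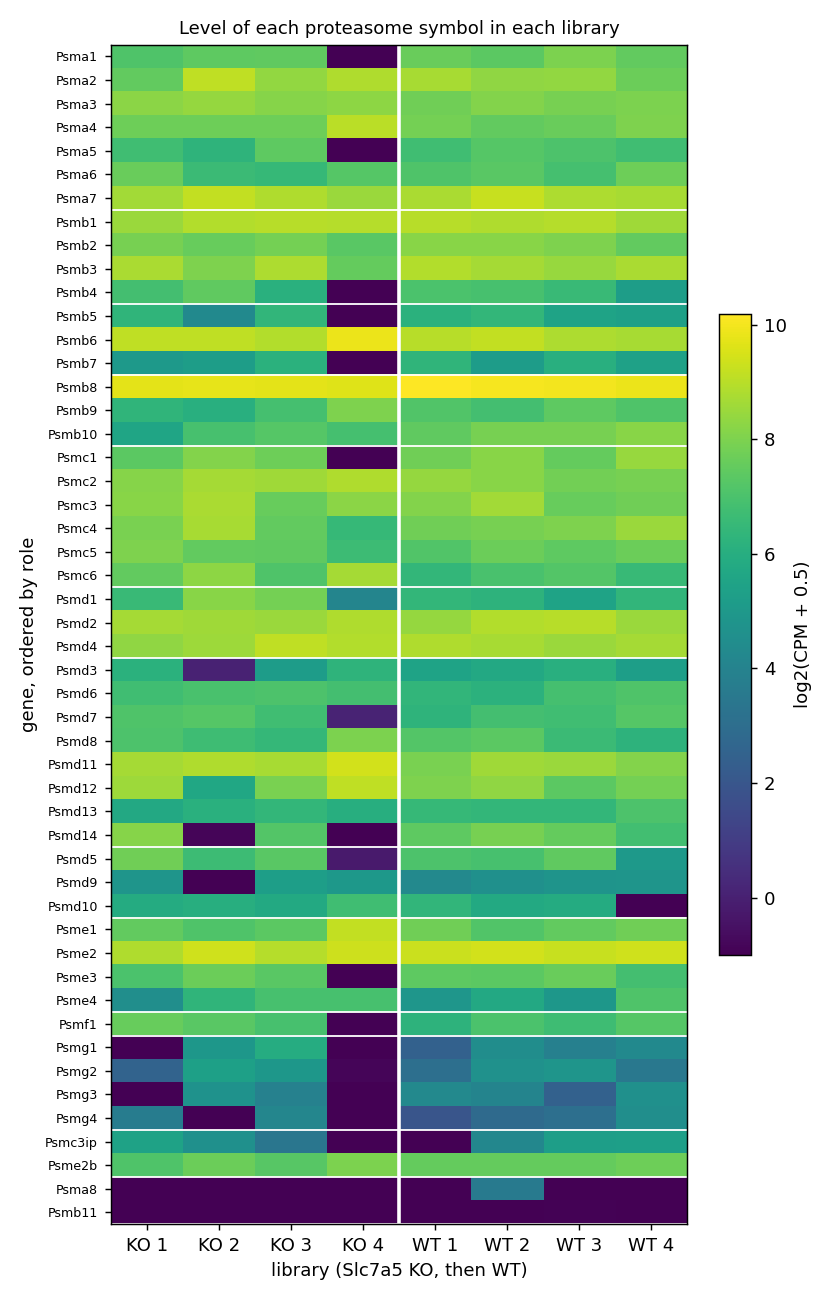
Level of the 50 proteasome symbols in each library as log2(CPM + 0.5), KO libraries left of WT libraries, genes ordered by role with white lines between roles. The darkest cells mark genes without reads, 13 tested members in KO library 4 against at most 2 in any other library, and Psmb8 is bright in every library.

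Genes around the proteasome were examined from a list of 22 ubiquitin-proteasome partners and regulators, of which 21 were tested. None passed edgeR's quasi-likelihood test, 11 had higher and 10 lower estimates, and the list's median was 0.20 (log2 fold change). Pomp, which matures the core, had 543, 701, 498 and 834 CPM in KO, against 473, 524, 418 and 522 CPM in WT (log2 fold change 0.41, SE 0.23). Adrm1, a ubiquitin receptor of the cap, had 117, 14.5, 208 and 1.5 CPM in KO, against 240, 235, 293 and 234 CPM in WT. All KO libraries lay below all WT libraries, unevenly, and the log2 fold change was -1.55 (SE 1.02, adjusted p = 0.9999 in edgeR's quasi-likelihood test). Nploc4, a Vcp cofactor, separated the same way, with 2.27 ± 4.27 CPM in KO and 35.9 ± 15.6 CPM in WT, and was singled out after its values were seen. Nfe2l1, which drives proteasome genes when degradation falls short, had 13.3 ± 15.4 CPM in KO and 21.4 ± 19.7 CPM in WT. Ddi2, the protease that activates it, had 12.4 ± 12.2 CPM in KO and 3.16 ± 2.85 CPM in WT. Both overlapped between groups.

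The inducers of the immunoproteasome and the steps after it were read from a list of 13 interferon regulators and peptide loading genes. None passed, 4 had higher and 9 lower estimates, and the list's median was -0.38 (log2 fold change), beside -0.12 over all tested genes. Ifng, the cytokine that induces Psmb8 to Psmb10, had 21.2, 0, 77.4 and 0 CPM in KO, against 171, 223, 144 and 104 CPM in WT. All KO libraries lay below all WT libraries, and 2 of the KO libraries held no reads (log2 fold change -2.70, SE 1.82, adjusted p = 0.9999 in edgeR's quasi-likelihood test). Irf1, an interferon-induced driver of the immunoproteasome genes, had 85.5 ± 37.8 CPM in KO and 136 ± 57.0 CPM in WT (log2 fold change -0.67, SE 0.58). Nlrc5, an activator of MHC class I genes, had 112 ± 83.4 CPM in KO and 91.7 ± 47.9 CPM in WT. Tap1, of the peptide transporter, had 178 ± 134 CPM in KO and 296 ± 85.5 CPM in WT, with 0.05 CPM in KO library 4. The log2 fold change of Tap1 was -0.73 (SE 1.23), and -0.33 without that library. Its partner Tap2 had 120 ± 50.4 CPM in KO and 164 ± 39.5 CPM in WT. These means overlapped within their spread, as did the single libraries. Tapbp had 503 ± 75.6 CPM in KO and 654 ± 109 CPM in WT (log2 fold change -0.38, SE 0.22), and -0.01 with the GC offset. B2m, the light chain of MHC class I, had 3316 ± 459 CPM in KO and 3901 ± 1166 CPM in WT. The 2 heavy chain genes on the list went apart and were singled out after their values were seen. H2-D1 had 993 ± 152 CPM in KO and 1499 ± 182 CPM in WT without overlap (unadjusted p = 0.00875, adjusted p = 0.619 in edgeR's quasi-likelihood test). H2-K1 had 6159 ± 1868 CPM in KO and 3983 ± 630 CPM in WT with overlap (unadjusted p = 0.0141, adjusted p = 0.7498), and reads may be split between such closely related class I genes.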

How the data were processed

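The labels' protocols describe RNA from sorted CD4+ T cells of arthritic knees, a column kit for small RNA amounts, a low-input library kit and an Illumina NovaSeq6000. The authors deposited raw counts of reads per gene symbol, not normalized. Per the submitters' processing notes, HISAT2 2.1.0, featureCounts, edgeR 3.28.1 and mm10 were used; of the annotation and strand setting nothing is stated, so reads of overlapping genes cannot be told apart.

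From the counts, in R 4.3.3, genes were filtered by filterByExpr of edgeR 4.0.16 (minimum count 10, minimum total 15), scaled by TMM and compared, KO over WT with genotype as the only term, by the quasi-likelihood test of edgeR (robust) with Benjamini-Hochberg adjustment over all 8489 genes tested. The threshold was an adjusted p under 0.05. CPM is counts over the TMM-scaled library size. The SE of a log2 fold change was derived from the F statistic. Lengths and GC content come from 1 representative protein-coding transcript per gene (GENCODE, APPRIS principal), found for all 50 members, and positions and upstream sequences from RefSeq tables of GRCm38.p6. Sums over members have no test. Exact permutation tests of 4 against 4 libraries cannot go below p = 0.0286.

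DESeq2 1.42.0, limma 3.58.1, other scalings and filters, a GC offset (loess, span 0.75), a replicate block and each library left out were alternatives. The fits were tested on simulated data. Members, lists and the rule for named genes (all catalytic, Psme and Psmf1 genes, and in each other role the most abundant, the smallest p and those without overlap) were chosen with earlier results of these data known. Psma4 and Psmd14 were added after their values were seen. Protein sequences were not used here. Values of some listed genes are not reported here.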

Additional observations from a re-analysis of the deposited data

Results flagged for a closer look

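In groups of 4 libraries, 13 of 140 sets of values held 1 library far from the other 3 (Dixon's criterion), 7 in KO and 6 in WT. Chance gives about 1 in 20 such sets where values are independent and normally distributed. These sets share libraries and genes, and Psma8 and Psmb11 had reads in only 1 WT library, so the count cannot be set against that rate.

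In KO, 5 genes or sums had KO library 4 far above the others. These were Psma4 (522.5 CPM), Psmb6 (940.2 CPM), Psmd11 (695.6 CPM), Psme1 (574.4 CPM) and the constitutive catalytic sum (940.2 CPM), which in that library is Psmb6 alone. The log2 ratio of Psmb10 to Psmb7 was also set apart in KO library 4 (7.88), where Psmb7 had no reads. The 20S core sum was set apart by KO library 1, the lowest at 4345 CPM.

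In WT, library 2 stood above the others for Psma7 (599.8 CPM) and Psma8 (11.74 CPM), and library 3 for Psmb11 (0.03078 CPM, 1 read) and the partner Adrm1 (292.8 CPM). The library labelled WT 4 stood above the others for Psmd13 (133.4 CPM) and Psme2b (210.1 CPM).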

How the results depend on the processing

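No member passed an adjusted p under 0.05 in any of the 20 alternative fits, and 21 of the 48 kept the sign of their estimate in all 20. Genes called over the whole table numbered 0 with edgeR, 387 with DESeq2, 4 with limma voom and 4 with quality weights, and 0 without each library in turn. Psmb6, Psmb10, Psmc6, Psmd11 and Psma3 kept their direction throughout. Same-numbered KO and WT libraries did not deviate together (correlations between -0.02 and 0.05), and a replicate block gave 0 calls, with a median over members of -0.31 in place of -0.04 (over all tested genes -0.68 in place of -0.12), a log2 fold change of -0.88 for Psmd5, and exact sign-flip p of 0.5, 0.125 and 1.0 for the Psmb8, Psmb9 and Psmb10 pairs, where 0.125 is the smallest possible. The causes of the changes below were not tested beyond what each setting leaves out.

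With the GC offset, log2 fold changes were 0.0009 for Psmb8 and for the immunoproteasome median, 0.17 for Psmb9, 0.0455 for Psma7, -0.17 for Psmb1, -0.12 for Psmd5 and 0.16 for the cap median. Under limma voom they were -0.0282 for Psmb1, -1.33 for Psmd5, -0.24 for Nlrc5, -0.28 for the member median (-1.28 over all tested genes) and -2.02 for the assembly chaperones. With quality weights they were -0.0266 for Psme1, -0.0637 for Psmb1, -0.81 for Nlrc5, -0.51 for the immunoproteasome median, -0.0786 for the cap and -0.18 for the activators. Upper quartile scaling gave -0.085 for Psmb1, -0.0394 for Psmd4 and the cap, and -0.0125 for Psmd5. No scaling factor gave -0.08 for Psmb1, -0.0318 for Psmd4 and -0.0354 for Psmd5. Psmb1 was -0.0014 without a filter and -0.0139 at a minimum count of 50. Without the library with the fewest genes of each genotype, values were -0.17 for Psme1, -0.11 for Psmb1, -0.0285 for Psmd4, -0.55 for Nlrc5, -0.69 for the immunoproteasome median and -0.79 for the Psmb10 to Psmb7 ratio. That ratio was -0.11 with 5 CPM added, and the summed immunoproteasome to constitutive ratio was 0.53 by mean log2.

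Leaving out 1 library at a time, values ran between -0.68 and 0.10 for Psmb9, -0.23 and 0.68 for Psme1, -0.25 and 0.0184 for Psma7, -0.0618 and 0.11 for Psmb1, -0.0851 and 0.175 for Psmd4, -0.43 and 0.43 for Psmd5, and -0.31 and 0.61 for Nlrc5. They ran between -0.68 and -0.25 for the immunoproteasome median, 0.0089 and 0.175 for the cap median, -0.0924 and 2.34 for Psmb8 to Psmb5, and -1.03 and 1.43 for Psmb10 to Psmb7. As further alternatives chosen after seeing the data, members wholly above and wholly below WT numbered 0 and 4 with no scaling factor, 3 and 2 without KO library 4, and 4 and 4 without KO libraries 2 and 4.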
